A study of Mus musculus with 10 samples.

Results

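The tumour suppressor p53 (Trp53) and 9 genes known as its transcriptional targets, Cdkn1a, Mdm2, Ccng1, Trp53inp1, Bbc3, Pmaip1, Bax, Sesn2 and Phlda3, were followed through 5 culture histories of mouse embryonic stem (ES) cells. The 10 genes were chosen by name, with earlier results of these data known. They are 10 of the 24015 genes in the count tables, and all 10 passed the filter on low counts. The cells carried a reporter of Wnt/β-catenin signalling and were kept on gelatin with leukaemia inhibitory factor (LIF) in every group. The labels give the cells no treatment that damages DNA. Serum cells were grown in serum with LIF. First 2i cells had spent 5 to 6 passages in 2i, a medium with an inhibitor of GSK3 at 3 µM and one of the ERK pathway at 1 µM, and long 2i cells had spent more than 13. Serum return cells had spent more than 13 passages in 2i and then 6 in serum, and second 2i cells 13 passages in 2i, 6 in serum and 4 to 5 again in 2i. Cultures were split every 48 h. Each group held 2 RNA-seq libraries. Nothing says that they came from separate cultures, so a p-value here rests on the spread of libraries that may differ only technically.

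p53 is a transcription factor whose protein is held low by the ubiquitin ligase Mdm2 and is stabilised under DNA damage and other stress. It then activates genes that slow the cell cycle, drive apoptosis, adjust metabolism or, like Mdm2 itself, feed back on p53. Mouse ES cells carry abundant p53, cycle fast and have a short G1 phase. RNA counts of Trp53 do not measure the p53 protein or its activity.

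Counts assigned to genes ran from 16809070 to 27766338 per library. Levels are CPM, read counts set relative to library size with TMM factors, and are given for replicate 1 and then replicate 2. ES cell markers (10 genes, none at 0) summed to 6265 to 9534 CPM per library, lowest in long 2i. Fibroblast and feeder markers summed to 23 to 43.3 CPM in serum-grown libraries and to 8.6 to 18.1 CPM in 2i. Of 6 tested genes of this list, 1 rose and 2 fell in first 2i against serum. Endoderm markers summed to 311 to 390.5 CPM in the 4 libraries grown in serum and to 91.9 to 142 CPM in the 6 grown in 2i. Col4a1, a basement membrane collagen, gave 127 and 167 CPM of these in serum and serum return, while the endoderm factor Sox17 stayed at 0.132 to 0.644 CPM. Gata4 and Dab2 of the same list went the other way, from 1.28 and 1.47 CPM in serum to 4.67 and 8.52 CPM in long 2i. Of 8 tested endoderm genes, 2 rose and 5 fell in first 2i against serum, and 2 were higher and 3 lower in long 2i than in serum. Of all tested genes, 35.1% rose and 34.9% fell in the first of these comparisons, and 35.1% were higher and 33.9% lower in the second. The summed endoderm level moved with the medium, as Cdkn1a and Pmaip1 did. So did the trophectoderm markers, at 48.2 to 87.5 CPM in serum-grown libraries and 105.6 to 153.9 CPM in 2i. Of 6 tested trophectoderm genes, 4 rose and 1 fell in first 2i against serum. Mesoderm markers summed to 1.98 to 2.8 CPM in serum-grown libraries and 3.21 to 9.4 CPM in 2i. Blood and endothelium markers overlapped between the media (61.3 to 85.3 and 71.3 to 128 CPM). The part of these sums in the differences of Cdkn1a and Pmaip1 was not tested. In bulk RNA fewer cells of a type and less RNA per cell cannot be told apart. Replicate 2 read above replicate 1 in all 5 groups for Trp53, Bbc3, Bax and Phlda3, as for 11.8% of all tested genes, and below it in all 5 for Ccng1 and Trp53inp1, as for 11.7%. Each group held 1 library of each replicate number.

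All 10 genes differed over the 5 groups in edgeR's quasi-likelihood test (Benjamini-Hochberg adjusted p under 0.05 over 14220 tested genes), but so did 91.6% of all tested genes. The size of the differences set the genes apart from each other. The highest group mean stood 45.1 times above the lowest for Pmaip1 and 11.7 times for Cdkn1a, which put them at the 96.7 and 90.9 percentiles of this ratio among all tested genes. The ratio was 4.04 for Ccng1, 3.22 for Bbc3, 3.03 for Trp53inp1 and 2.81 for Phlda3. Sesn2, Mdm2 and Bax lay between 1.7 and 1.94. Trp53 had the lowest ratio of the 10, 1.24, at the 9.56 percentile. Per kilobase of annotated exon, Trp53 was the most abundant of the 10 in serum at 193 CPM per kb, followed by Bax at 167, and Bbc3 was the least abundant at 6.5. In long 2i Bax stood first at 229.8 CPM per kb, Trp53 second at 174, and Pmaip1 last at 1.23.

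**Figure D1:**
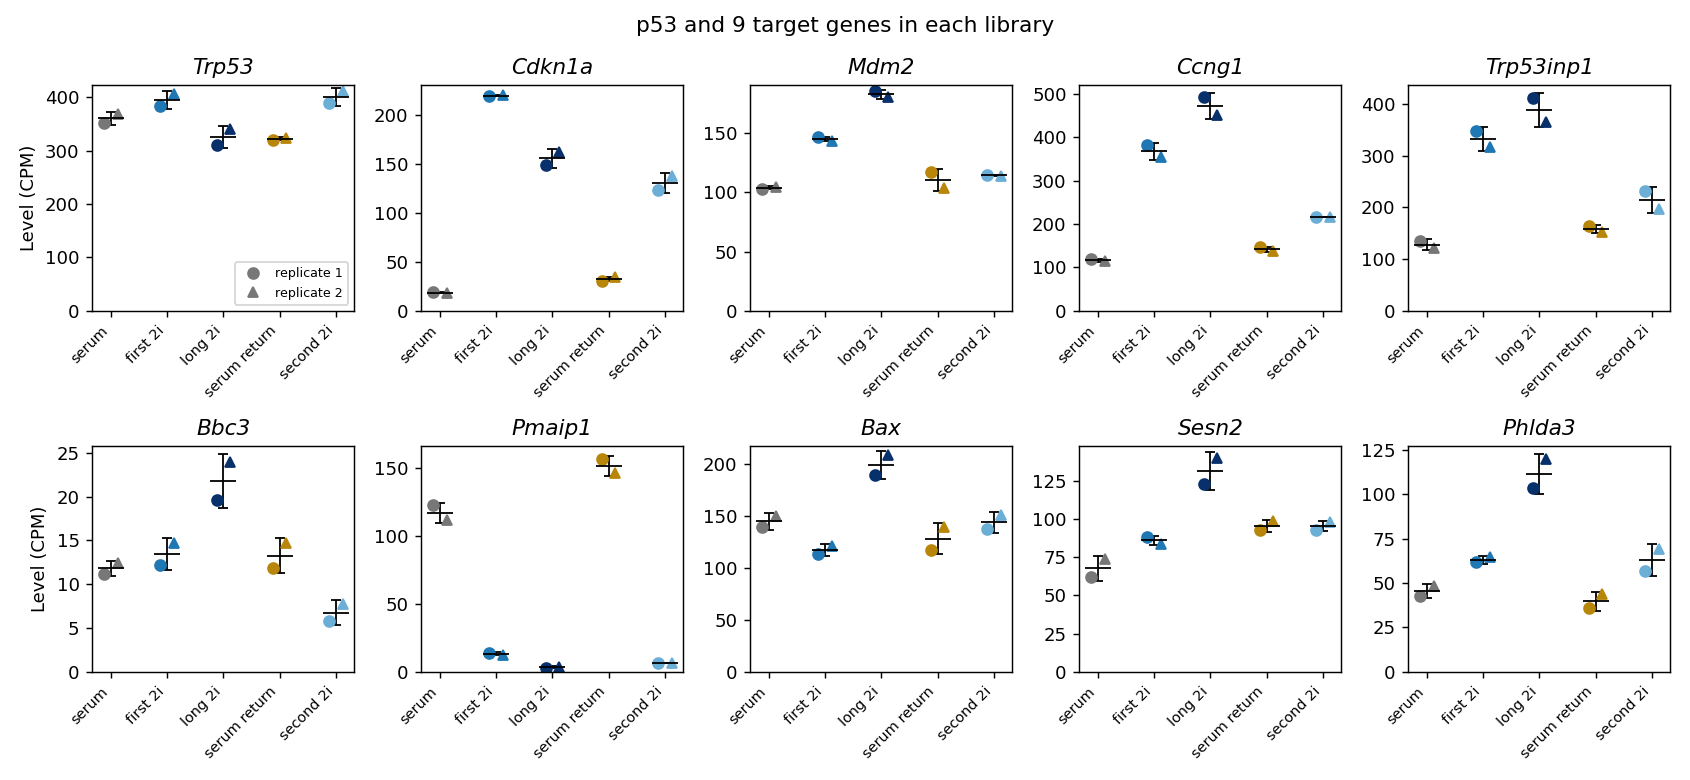
Level in CPM (y axis, from 0) of each of the 10 genes in every library, by culture group (x axis). Circles are replicate 1, triangles replicate 2, and bars the mean ± SD of the 2 libraries. Cdkn1a is high in the 3 groups grown in 2i, Pmaip1 in the 2 grown in serum, and Trp53 differs little.

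Trp53 mRNA moved within a narrow range. It gave 352 and 368 CPM in serum, 383 and 407 in first 2i, 310.3 and 339.8 in long 2i, 321 and 324 in serum return, and 388 and 412 when back in 2i. The first 2i and second 2i libraries were the highest, and the long 2i and serum return libraries the lowest. In mean ± SD this was 360.0 ± 11 CPM in serum, 395 ± 17 in first 2i, 325 ± 21 in long 2i, 322 ± 2.4 in serum return and 400.3 ± 17 in second 2i. Trp53 was 1.1-fold higher in first 2i than in serum (log2 fold change 0.13 ± 0.053 SE, adjusted p = 0.0315). The call did not hold when replicate 1 of serum or replicate 2 of first 2i was left out (adjusted p = 0.184 and 0.25), nor with DESeq2's size factors (adjusted p = 0.0502) or in DESeq2 (adjusted p = 0.07). From first 2i to long 2i Trp53 fell by 0.28 on the log2 scale (adjusted p = 0.000128). From serum return to second 2i it rose 1.24-fold (adjusted p = 3.02e-05). The neighbours first 2i and second 2i differed by less than their spread (adjusted p = 0.789), and so did long 2i and serum return (adjusted p = 0.843).

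Serum return was lower than serum for Trp53 (log2 fold change -0.16 ± 0.053 SE, adjusted p = 0.0278), but the call was lost without any 1 of 3 libraries: replicate 1 of serum return (adjusted p = 0.131), replicate 2 of serum return (adjusted p = 0.0782) or replicate 2 of serum (adjusted p = 0.177). The lower Trp53 level of long 2i against serum (-0.15 on the log2 scale, adjusted p = 0.0194) was lost without replicate 1 of long 2i or replicate 2 of serum (adjusted p = 0.198 and 0.131). A processed copy of the gene, the pseudogene Trp53-ps, is annotated in the mouse genome, so reads that align to both could have been left uncounted.

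Mdm2, the ligase that marks p53 for degradation and is itself a p53 target, was highest in long 2i. Its level was 103 and 105 CPM in serum, 146 and 143 in first 2i, 185 and 179.7 in long 2i, 117 and 104 in serum return, and 114 and 114 when back in 2i. Both long 2i libraries stood above the other 8, and the first 2i libraries came next. Serum return overlapped both serum and second 2i, and the second 2i libraries stood above the serum libraries. Mdm2 was 1.4-fold higher in first 2i than in serum (log2 fold change 0.48 ± 0.058 SE, adjusted p = 2.73e-07) and a further 1.26-fold higher in long 2i than in first 2i (log2 fold change 0.33 ± 0.057 SE, adjusted p = 3.7e-05). On return to serum it fell by 0.72 on the log2 scale (adjusted p = 4.37e-10) to a level not distinguished from that of serum (adjusted p = 0.254). The second period in 2i gave no called difference from serum return (log2 fold change 0.05 ± 0.058 SE, adjusted p = 0.477). The difference between second 2i and serum passed narrowly (log2 fold change 0.14, adjusted p = 0.0429) and was lost without each of the 4 libraries compared, with adjusted p from 0.076 (without replicate 2 of serum) to 0.147 (without replicate 1 of serum), 0.125 without replicate 1 of second 2i and 0.111 without replicate 2. It was also lost with DESeq2's size factors (adjusted p = 0.0597) and in DESeq2 (adjusted p = 0.0993).

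Of 32 other regulators of p53, 6 rose and 15 fell in first 2i against serum, beside 35.1% and 34.9% of all tested genes, with a median log2 fold change of -0.15. Mdm4, the Mdm2 relative that binds and blocks p53, averaged 173 ± 6.0 CPM in serum, 310.3 ± 7.8 in first 2i, 272 ± 17 in long 2i, 231 ± 22 in serum return and 237 ± 12 in second 2i. It rose 1.79-fold in first 2i (adjusted p = 3.53e-10), stayed 1.34-fold above serum after the return to serum (adjusted p = 6.41e-05), and did not pass in second 2i against serum return (adjusted p = 0.633). Cdkn2a, whose locus encodes the Mdm2 inhibitor Arf and the CDK inhibitor Ink4a, averaged 0.576 ± 0.070 CPM in serum, 29.8 ± 3.1 in first 2i, 36.6 ± 1.4 in long 2i, 1.57 ± 0.11 in serum return and 15.7 ± 1.2 in second 2i. These counts per gene cannot separate its 2 products. Cdkn2a was 51.4-fold higher in first 2i than in serum (adjusted p = 7.9e-17) and 9.94-fold higher in second 2i than in serum return (adjusted p = 6.39e-14). Ppm1d, a phosphatase that removes activating marks from p53 pathway proteins, fell by 0.41 on the log2 scale in first 2i (adjusted p = 7.38e-05) and ranged from 34.5 to 45.7 CPM over the groups. Of the p53 family, Trp63 did not pass the filter, and Trp73 averaged 10.1 CPM in long 2i against 0.51 to 1.42 CPM in the other groups (9.39-fold above first 2i, adjusted p = 1.01e-09).

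Cdkn1a encodes p21, the inhibitor of cyclin-dependent kinases through which p53 arrests the cycle in G1. Its level followed the medium: 19.3 and 18.1 CPM in serum, 219 and 219.8 in first 2i, 149 and 162 in long 2i, 30.7 and 34.1 in serum return, and 123 and 138 when back in 2i. All 6 libraries in 2i stood above all 4 in serum, and within each medium the groups did not overlap either. Cdkn1a rose 11.7-fold from 18.7 ± 0.88 CPM in serum to 219 ± 0.77 CPM in first 2i (log2 fold change 3.55 ± 0.077 SE, adjusted p = 4.05e-19). It then fell to 155 ± 9.5 CPM in long 2i (-0.50 on the log2 scale, adjusted p = 9.74e-07), the opposite direction to Mdm2. On return to serum it fell to 32.4 ± 2.4 CPM (-2.27 on the log2 scale, adjusted p = 1.32e-16) but stayed 1.73-fold above serum (log2 fold change 0.79 ± 0.084 SE, adjusted p = 8.08e-07). In second 2i it rose 4.03-fold to 130.2 ± 11 CPM (adjusted p = 1.16e-15). Second 2i was lower than first 2i (log2 fold change -0.75 ± 0.064 SE, adjusted p = 1.53e-08). The difference between second 2i and long 2i (-0.26 on the log2 scale, adjusted p = 0.00213) was lost without replicate 1 of second 2i (adjusted p = 0.0641). In the later GENCODE vM21 annotation, 273 bases or 10% of the Cdkn1a exons overlap a gene model on the opposite strand, whose reads cannot be told apart without a known strand setting.

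The sequence before 1 annotated start of Cdkn1a is shown because its window alone among those searched held paired p53 elements. Cdkn1a has a second annotated start further downstream, and counts per gene do not show which start was used. RefSeq promoter windows (GRCm38.p6, 250 bases before to 50 after each start) were matched for 8 of the 10 genes, in 11 windows. None was found for Trp53inp1 and Pmaip1, whose promoters were not searched. Both strands were searched for the p53 response element decamer, allowing overlaps. In the first Cdkn1a window, chr17:29090729-29091028 on the + strand, capitals mark the 2 decamers, which are 12 bases apart.
Cdkn1a: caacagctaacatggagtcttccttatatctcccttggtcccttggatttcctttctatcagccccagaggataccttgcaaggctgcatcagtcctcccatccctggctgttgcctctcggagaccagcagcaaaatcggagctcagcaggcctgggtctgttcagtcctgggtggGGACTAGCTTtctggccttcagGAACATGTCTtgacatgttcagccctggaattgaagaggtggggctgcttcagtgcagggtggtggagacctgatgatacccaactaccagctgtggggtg
The second decamer opens a 20-base stretch, chr17:29090928-29090947 on the + strand, that differs from 2 adjoining decamers at 1 base.
Cdkn1a, adjoining decamers: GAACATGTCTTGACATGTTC
Pairs of decamers 0 to 13 bases apart stood in 24 of 32851 RefSeq promoter windows (0.0731%), and such a 20-base stretch with at most 1 mismatch and intact cores in 18 (0.0548%). A single decamer was found in 5 of the 11 windows and in 8.36% of all windows. The other 4 windows belong to Trp53, Mdm2, Ccng1 and Bax, and the decamer is again in capitals in 40 bases around it.
Trp53, chr11:69580269-69580308 on the + strand: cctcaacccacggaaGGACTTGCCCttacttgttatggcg
Mdm2, chr10:117710920-117710959 on the - strand: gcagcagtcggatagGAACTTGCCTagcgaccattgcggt
Ccng1, chr11:40755447-40755486 on the - strand: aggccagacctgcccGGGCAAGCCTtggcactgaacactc
Bax, chr7:45467075-45467114 on the - strand: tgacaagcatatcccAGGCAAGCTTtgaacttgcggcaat
These decamers lie 66 to 75 bases before the start of Trp53, 177 to 186 before that of Mdm2, 176 to 185 before that of Ccng1 and 192 to 201 before that of Bax. The windows of Bbc3, Sesn2 and Phlda3 and the second window of Cdkn1a, chr17:29093519-29093818 on the + strand, held none of these letters. The libraries measured RNA, not binding of p53, and a match is a description of the sequence.

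Ccng1 encodes cyclin G1, an atypical cyclin that brings a phosphatase to Mdm2. Its level was 119 and 114 CPM in serum, 381 and 354 in first 2i, 492 and 449.9 in long 2i, 146 and 137 in serum return, and 217 and 216 when back in 2i. The 5 groups did not overlap, in the order long 2i, first 2i, second 2i, serum return and serum, and every neighbouring pair in this order differed beyond its spread. Ccng1 rose 3.15-fold in first 2i (log2 fold change 1.66 ± 0.057 SE, adjusted p = 5.45e-16) and 1.28-fold more in long 2i (adjusted p = 8.53e-06). In serum return it fell to 142 ± 6.2 CPM, 1.22-fold above serum (adjusted p = 0.00095). Its second rise in 2i was 1.53-fold (log2 fold change 0.61 ± 0.056 SE, adjusted p = 6.37e-09), so that second 2i stayed at 217 ± 0.80 CPM against 367 ± 19.6 CPM in first 2i (adjusted p = 1.61e-09).

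Genes downstream of p21 were read beside it. Of 20 genes of G2, mitosis and the DREAM complex, which represses many such genes when p21 is active, 15 fell and 1 rose in first 2i (median log2 fold change -0.37, all genes 0.01), and 14 fell and 1 rose in second 2i against serum return (median -0.26). Of all tested genes, 34.9% fell and 35.1% rose in the first comparison, and 33.3% and 32.3% in the second. The gene that rose was Lin9 in both, which encodes a subunit of DREAM itself, as does Lin54 in the list. In serum return against serum, where Cdkn1a was 1.73-fold higher, 6 of the 20 were higher and 3 lower (median log2 fold change 0.08). Of all tested genes, 16.5% were higher and 14.5% lower there. From first 2i to long 2i, where Cdkn1a fell, 11 of the 20 rose and 5 fell, beside 30.4% and 30.8% of all tested genes. Kif23, a motor protein of cytokinesis, averaged 271 CPM in serum and 137 in first 2i (-0.99 on the log2 scale, adjusted p = 1.44e-12). Of 18 partners of p21 and G1-S genes, 10 fell and 6 rose in first 2i. The cyclin E gene Ccne1 averaged 359.6 CPM in serum, 68.6 in first 2i, 135 in long 2i, 279 in serum return and 97.9 in second 2i, and it fell by 2.39 on the log2 scale in first 2i (adjusted p = 9.12e-19). Its partner Cdk2 rose in first 2i, from 111 to 253 CPM (2.28-fold, adjusted p = 1.15e-14). The part of p21 in these values was not tested.

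Trp53inp1, a stress-induced nuclear protein that takes part in p53 phosphorylation and autophagy, had the same order of groups as Ccng1. Its level was 135 and 121 CPM in serum, 348 and 316 in first 2i, 411 and 364 in long 2i, 164 and 153 in serum return, and 232 and 197 when back in 2i. Libraries in 2i were above those in serum, with second 2i the lowest of the 2i groups and its lower library close to serum return. Trp53inp1 rose 2.59-fold in first 2i (log2 fold change 1.37 ± 0.089 SE, adjusted p = 1.95e-08) and 1.35-fold in second 2i against serum return (log2 fold change 0.43 ± 0.088 SE, adjusted p = 0.000826). The further rise in long 2i over first 2i (1.17-fold, adjusted p = 0.0371) was lost without replicate 1 of long 2i or replicate 2 of first 2i (adjusted p = 0.28 and 0.237). Serum return was 1.24-fold above serum (adjusted p = 0.0209), which was lost without replicate 1 of serum return (adjusted p = 0.152) or replicate 2 of serum (adjusted p = 0.149).

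Sesn2 encodes sestrin 2, which restrains mTORC1 and is a target of ATF4 as well as of p53. Its level was 61.9 and 73.6 CPM in serum, 88.2 and 84.1 in first 2i, 123 and 140.5 in long 2i, 93 and 98.7 in serum return, and 93.3 and 98.1 when back in 2i. The long 2i libraries were the highest and the serum libraries the lowest, and of the 3 groups between them serum return and second 2i overlapped, with first 2i just below. Sesn2 rose 1.27-fold in first 2i (log2 fold change 0.35 ± 0.078 SE, adjusted p = 0.000584) and 1.53-fold further in long 2i (adjusted p = 9.7e-07). In serum return it stayed 1.41-fold above serum (log2 fold change 0.50 ± 0.077 SE, adjusted p = 8.74e-05), and second 2i did not differ from serum return beyond the spread (adjusted p = 0.989). The list of ATF4 and CHOP targets held 14 genes, Sesn2 and Atf4 itself included. Of these, 12 were higher in serum return than in serum, Sesn2 among them, and 1, Atf4, was lower (median log2 fold change 1.03, all genes 0.02). Of all tested genes, 16.5% were higher and 14.5% lower. From first 2i to long 2i 12 of the 14 fell and 2 rose, Sesn2 and Atf4, beside 30.8% and 30.4% of all tested genes. Chac1, an enzyme of glutathione breakdown in that list, averaged 19.6 CPM in serum and 55.8 in serum return (2.84-fold, adjusted p = 3.74e-10). In long 2i Chac1 averaged 4.98 CPM, where Sesn2 was at its highest.

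Phlda3 encodes a membrane-binding protein that holds back the kinase Akt. Its level was 42.8 and 48.3 CPM in serum, 61.5 and 64.6 in first 2i, 104 and 119.6 in long 2i, 35.9 and 43.5 in serum return, and 56.4 and 69.1 when back in 2i. Only the long 2i libraries stood apart at the top, and first 2i and second 2i overlapped. Phlda3 was 1.39-fold higher in first 2i than in serum (log2 fold change 0.47 ± 0.11 SE, adjusted p = 0.00283) and 1.77-fold higher in long 2i than in first 2i (log2 fold change 0.82 ± 0.11 SE, adjusted p = 2.99e-05). It fell to 39.7 ± 5.4 CPM in serum return (-1.50 on the log2 scale, adjusted p = 9.15e-08), where it missed the threshold against serum (adjusted p = 0.222). It passed there with no filter on low counts (adjusted p = 0.0301) and with the replicate number in the fit as a block (adjusted p = 0.00301). It rose 1.59-fold in second 2i (log2 fold change 0.67 ± 0.12 SE, adjusted p = 0.000251), to a level that differed from first 2i by less than the spread (adjusted p = 0.976).

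The 3 apoptosis genes each moved in a different way. Pmaip1 encodes Noxa, a BH3-only protein that neutralises Mcl1. Between the media it went the opposite way to Cdkn1a: 122 and 112 CPM in serum, 14 and 12.4 in first 2i, 2.96 and 3.75 in long 2i, 156 and 146 in serum return, and 6.16 and 6.17 when back in 2i. All 4 serum-grown libraries gave between 112 and 156 CPM, and the 6 in 2i at most 14 CPM. Pmaip1 fell by 3.15 ± 0.082 SE on the log2 scale in first 2i (adjusted p = 6.05e-18) and by 1.97 more in long 2i (adjusted p = 1.17e-10). On return to serum it rose 44.8-fold, to 151 ± 7.4 CPM against 117 ± 7.4 CPM in serum (log2 fold change 0.37 ± 0.065 SE, adjusted p = 0.00028). In second 2i it fell by 4.62 on the log2 scale (adjusted p = 3.16e-19) to 6.16 ± 0.0090 CPM, below first 2i (-1.10 on the log2 scale, adjusted p = 4.08e-07).

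Bbc3 encodes PUMA, the BH3-only protein that carries much of the p53 death response. Its level was low: 11.2 and 12.4 CPM in serum, 12.2 and 14.8 in first 2i, 19.6 and 24 in long 2i, 11.8 and 14.7 in serum return, and 5.78 and 7.75 when back in 2i. Long 2i was the highest group and second 2i the lowest, and serum, first 2i and serum return overlapped. Bbc3 did not pass in first 2i against serum (log2 fold change 0.19 ± 0.15 SE, adjusted p = 0.248) and rose 1.62-fold from first 2i to long 2i (log2 fold change 0.70 ± 0.14 SE, adjusted p = 0.000242). In second 2i it fell by 0.96 on the log2 scale against serum return (adjusted p = 3.18e-05), so that the 2 groups at few passages in 2i, first and second, differed by -0.99 on the log2 scale (adjusted p = 9.41e-05).

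Bax, which forms pores in the mitochondrial outer membrane, fell in first 2i, as Pmaip1 did. Its level was 139 and 150.5 CPM in serum, 113 and 121 in first 2i, 189.7 and 209 in long 2i, 118 and 139 in serum return, and 137 and 151 when back in 2i. Long 2i stood above the other groups, which overlapped in part. In first 2i Bax fell by 0.30 ± 0.078 SE on the log2 scale (adjusted p = 0.0025), and it rose 1.7-fold from there to long 2i (log2 fold change 0.77 ± 0.078 SE, adjusted p = 3.05e-07). Serum return, at 128 ± 15 CPM, missed the threshold against serum (adjusted p = 0.0969) but passed without its replicate 2 (adjusted p = 0.0109), with no filter on low counts (0.0141) and in a fit of these groups alone (0.0498). Second 2i missed it against serum return (adjusted p = 0.0642) but passed without replicate 1 of second 2i (adjusted p = 0.0308), replicate 2 of serum return (adjusted p = 0.00374), or replicate 1 or replicate 2 of long 2i (adjusted p = 0.0444 for either). It also passed with no filter (0.00648), with these groups alone (0.0493) and with the replicate number in the fit as a block (adjusted p = 6.75e-05). With that block, Bax was also called in serum return against serum (adjusted p = 8.31e-05). In GENCODE vM21, 192 bases or 22.1% of the Bax exons overlap another gene model on the same strand, and reads there could have been set aside as ambiguous.

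**Figure D2:**
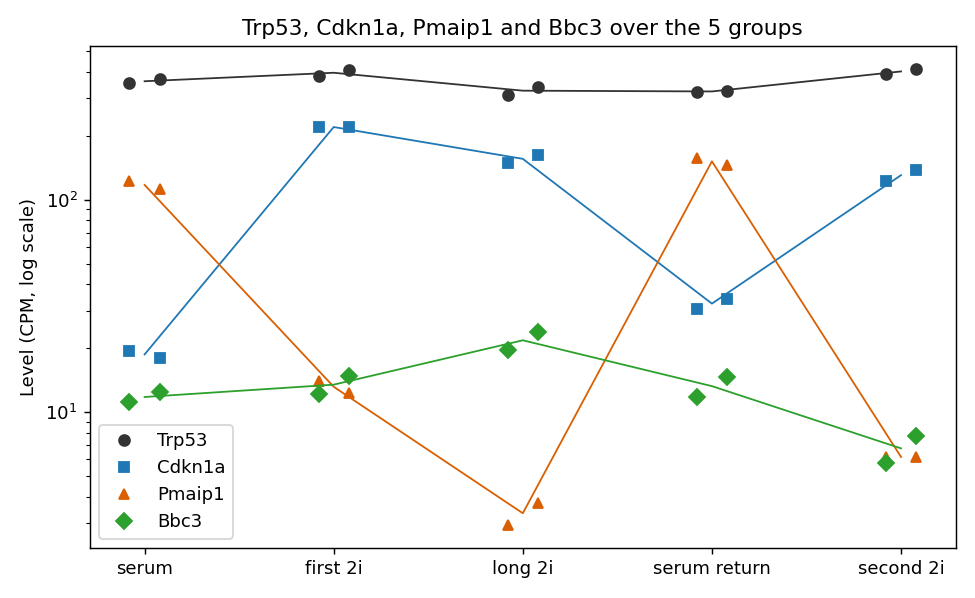
Level in CPM (log y axis) of Trp53, Cdkn1a, Pmaip1 and Bbc3 over the 5 groups (x axis). Points are libraries and lines join group means. Cdkn1a and Pmaip1 cross between serum and 2i, Trp53 is nearly flat, and Bbc3 is highest in long 2i and lowest in second 2i.

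Among 13 tested members of the BCL-2 family outside these genes, 9 fell and 2 rose in first 2i against serum (median log2 fold change -0.52), and 9 fell and 3 rose in second 2i against serum return (median -0.49). Of all tested genes, 34.9% and 33.3% fell and 35.1% and 32.3% rose in these comparisons. Bmf, a BH3-only gene, averaged 38.2, 10.9, 3.17, 49.6 and 8.41 CPM in serum, first 2i, long 2i, serum return and second 2i, and fell by 1.81 on the log2 scale in first 2i (adjusted p = 8.08e-13). Bcl2l11, which encodes the BH3-only protein Bim, fell by 1.58 (adjusted p = 2.7e-11). Mcl1, the survival protein that Noxa binds, averaged 664 CPM in serum and 679.9 in serum return but 401, 351 and 487 in first, long and second 2i, and fell by 0.73 on the log2 scale in first 2i (adjusted p = 7.19e-12). Bcl2l1, which encodes the survival protein Bcl-xL, rose 1.43-fold from first to long 2i (adjusted p = 4.66e-07), and Bcl2 stayed between 0.322 and 0.758 CPM. Bcl2l14 went from 0.849 CPM in serum to 22.8 in first 2i (26.7-fold, adjusted p = 2.63e-16).

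Counted over the 10 genes, the first move into 2i raised 7 and lowered 2 (35.1% of all tested genes were higher and 34.9% lower). The 7 that rose were Trp53, Cdkn1a, Mdm2, Ccng1, Trp53inp1, Sesn2 and Phlda3, Bax and Pmaip1 fell, and the median log2 fold change was 0.41 against 0.01 over all genes. From first 2i to long 2i 7 rose and 3 fell (30.4% of all tested genes were higher and 30.8% lower), and the 3 that fell were Trp53, Cdkn1a and Pmaip1. Against serum, 8 were higher in long 2i and 2 lower (35.1% of all tested genes were higher and 33.9% lower). From long 2i to serum return 1 rose, Pmaip1, and 8 fell (35.4% of all tested genes were higher and 36% lower), with a median of -0.73 on the log2 scale. Serum return nevertheless differed from serum: 5 genes were higher, Cdkn1a, Ccng1, Trp53inp1, Pmaip1 and Sesn2, and 1, Trp53, was lower (16.5% of all tested genes were higher and 14.5% lower). Calls over all genes in that comparison fell from 4407 to 2428 without replicate 1 of serum return and to 2839 without replicate 2 of serum. These comparisons share libraries, so their counts are not independent of each other.

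In second 2i against serum return 5 of the 10 rose and 2 fell (32.3% of all tested genes were higher and 33.3% lower). Trp53, Cdkn1a, Ccng1, Trp53inp1 and Phlda3 rose, Bbc3 and Pmaip1 fell, and the median was 0.24. Second 2i was below first 2i for 6 genes, Cdkn1a, Mdm2, Ccng1, Trp53inp1, Bbc3 and Pmaip1, and above it for 1, Bax (18.1% of all tested genes were higher and 19.6% lower). The Bax difference (log2 fold change 0.30 ± 0.078 SE, adjusted p = 0.00681) was lost without replicate 1 of first 2i (adjusted p = 0.0622) or replicate 2 of second 2i (adjusted p = 0.0839). Against long 2i, second 2i was lower for 8 and higher for 2, Trp53 and Pmaip1 (28.1% of all tested genes were higher and 28.4% lower). Against serum, second 2i was higher for 7 and lower for 2, Bbc3 and Pmaip1 (33.6% of all tested genes were higher and 32.8% lower). Of these 7, Mdm2 was lost without each of the 4 libraries compared, as given above, and Trp53 (adjusted p = 0.0156) was lost without replicate 1 of serum or replicate 2 of second 2i (adjusted p = 0.116 and 0.16). Serum return against first 2i gave 1 higher, Pmaip1, and 6 lower (34.3% of all tested genes were higher and 33.7% lower).

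The difference between the responses was tested as the second (second 2i against serum return) minus the first (first 2i against serum). It was called for 8 of the 10 genes, 7 with a negative and 1 with a positive sign (18.4% of all tested genes were positive and 21% negative). Cdkn1a rose 11.7-fold the first time and 4.03-fold the second, a difference of -1.54 ± 0.10 SE on the log2 scale (adjusted p = 1.44e-09). For Ccng1 the rises were 3.15-fold and 1.53-fold (difference -1.05, adjusted p = 5.74e-09), and for Trp53inp1 2.59-fold and 1.35-fold (difference -0.94, adjusted p = 9.39e-05). Part of each difference lay in the base, since serum return stood above serum for these 3 genes, and part in the end point, since second 2i stood below first 2i. Mdm2 (-0.43, adjusted p = 0.000314) and Bbc3 (-1.15, adjusted p = 0.000377) had the same sign. For Pmaip1 the negative sign (-1.46, adjusted p = 8.1e-08) means a deeper fall, -4.62 against -3.15. Bax had the positive sign (0.48, adjusted p = 0.00285): it fell the first time and did not pass the second.

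The interaction of Sesn2 (-0.35, adjusted p = 0.0155) did not hold when any of 4 libraries was left out: replicate 1 of serum (0.0981), of first 2i (0.0601) or of second 2i (0.0595), or replicate 2 of serum return (adjusted p = 0.0592). Trp53 (0.18, adjusted p = 0.0631) and Phlda3 (0.20, adjusted p = 0.371) missed the threshold. Both passed with the replicate number in the fit as a block (adjusted p = 0.000268 and 0.039). Trp53 passed without replicate 1 of second 2i (adjusted p = 0.0478), replicate 2 of first 2i (0.0374), or replicate 1 or replicate 2 of long 2i (0.0418 and 0.0419). Of the 14 genes in the ATF4 and CHOP list, 12 were negative in the interaction and 1, Atf4, was positive. The shares over all tested genes were 21% and 18.4%. Rn45s, a precursor ribosomal RNA, set the 2 serum return libraries apart, at 2496 and 15476 CPM, against 3084 to 5445 CPM in the other 8. The part of either in these differences was not tested.

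**Figure D3:**
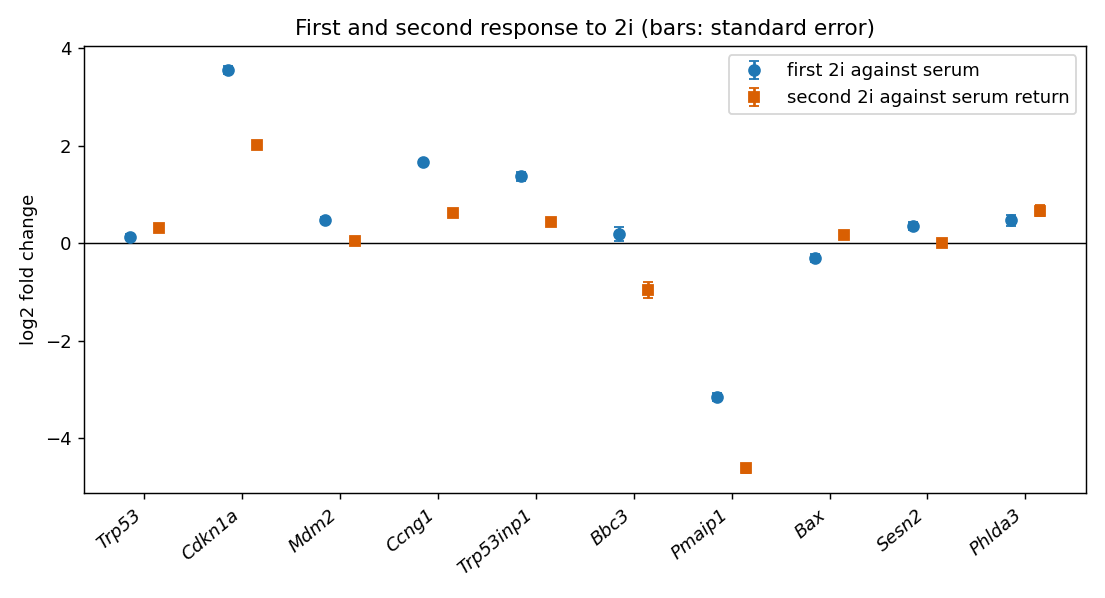
Log2 fold change ± SE (y axis) of each gene (x axis) in first 2i against serum and in second 2i against serum return. The second rise is smaller for Cdkn1a, Ccng1 and Trp53inp1, and the second fall is deeper for Pmaip1.

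Long 2i held the highest level of 7 of the 10 genes by test, that is, higher than each of the 4 other groups in 4 separate comparisons, as for 12.8% of all tested genes. This way of counting was chosen after the data were seen, and the genes and lists with earlier results of these data known. The 7 were Mdm2, Ccng1, Trp53inp1, Bbc3, Bax, Sesn2 and Phlda3. It was 6 without replicate 1 of long 2i or replicate 2 of first 2i, where Trp53inp1 was lost. Trp53, Cdkn1a and Pmaip1 were outside it, and all 3 were lower in long 2i than in first 2i. The same count was 20 of 55 other p53 targets: 7 of 15 that act on the cell cycle, 7 of 13 in cell death, 5 of 17 in metabolism and antioxidant defence, and 1 of 10 in DNA repair. It was 6 of 32 regulators, 2 of 13 BCL-2 family genes, 1 of 18 G1-S genes, 1 of 20 G2-M and DREAM genes and 1 of 14 genes in the ATF4 and CHOP list, which was Sesn2.

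Other values moved with long 2i. The summed neuroectoderm markers (8 genes) were 324.9 and 325.4 CPM in its 2 libraries and 73.7 to 125 CPM elsewhere. The neurofilament genes Nefl and Nefm gave 138 and 127 CPM of that sum in long 2i, and Tubb3 and Pax6 gave 33.7 and 2.55 CPM against 6.46 and 0.0234 CPM in first 2i. Sox1, an early neural factor, was at 8.02 CPM in long 2i and 9.18 CPM in first 2i, and Neurog2 was at 0 in both. Of 7 tested neuroectoderm genes, 5 were higher and 1 was lower in long 2i than in first 2i, and 3 were higher and 3 lower than in serum. The shares over all tested genes were 30.4% higher and 30.8% lower against first 2i, and 35.1% and 33.9% against serum. The summed ES cell markers were at their lowest, 6265 to 6313 CPM against 7727 to 9534 CPM in the other groups. Replicate 1 of long 2i also had the fewest gene counts of the 10 libraries. The single marker genes were chosen after their values were seen, and the part of these values in the higher target levels was not tested.

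**Figure D4:**
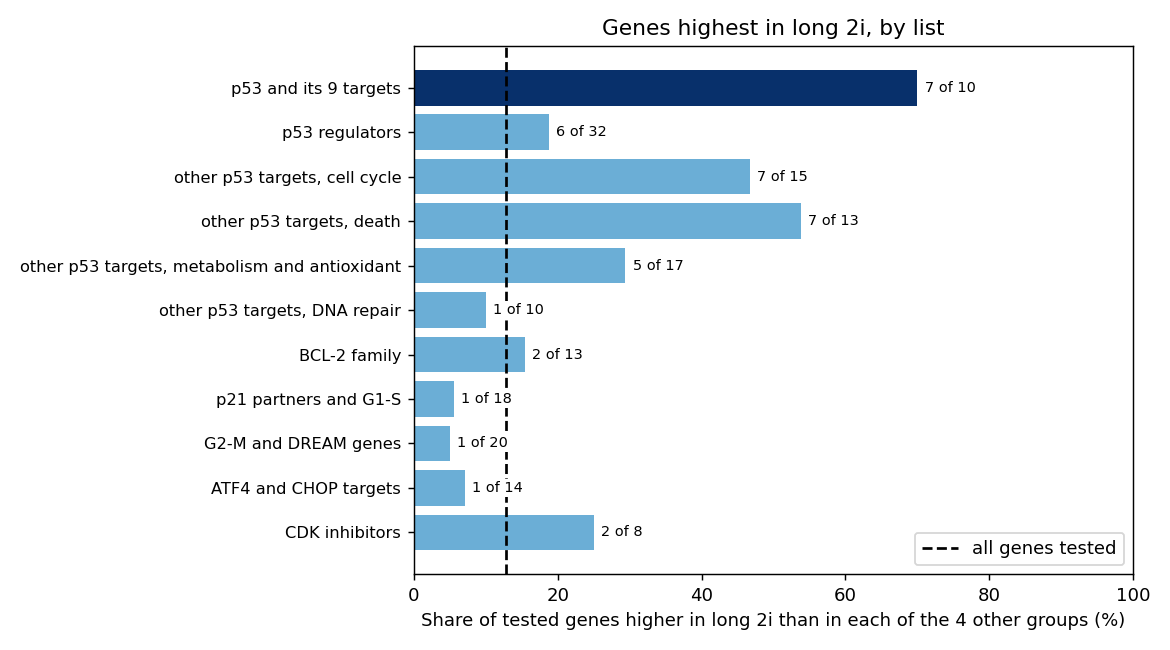
Gene lists (y axis) and the percent of their tested genes (x axis) that were higher in long 2i than in each of the 4 other groups. The dashed line is the share of all tested genes, 12.8%. Lists above it are the 10 p53 genes and the cell cycle, death and metabolism targets. The regulators (6 of 32), the BCL-2 family (2 of 13) and the CDK inhibitors (2 of 8) are also above it, but by few genes. Cdkn2a is counted in both the regulators and the CDK inhibitors. The counts beside the bars give the list sizes.

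The 55 other tested p53 targets, also listed with earlier results of these data known, were counted in the same comparisons. In first 2i 30 rose and 14 fell (median log2 fold change 0.23, all genes 0.01, of which 35.1% rose and 34.9% fell), and in long 2i against serum 36 were higher and 14 lower (median 0.51), beside 35.1% and 33.9% of all tested genes. From long 2i to serum return 17 rose and 34 fell (median -0.44), beside 35.4% and 36%. In second 2i against first 2i 7 were higher and 29 lower (median -0.27), beside 18.1% and 19.6% of all tested genes. Of the 10 genes 6 were lower there. In second 2i against serum return the counts were 19 higher and 23 lower (median -0.04), beside 32.3% and 33.3%.

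Several were highest in long 2i, as most of the 10 were. Zmat3, an RNA-binding protein, averaged 133 CPM in serum, 111 in first 2i, 195 in long 2i, 134 in serum return and 66.2 in second 2i, and rose 1.75-fold from first to long 2i (adjusted p = 7.21e-11). Pidd1, which assembles a caspase-2 platform, averaged 39 CPM in serum, 42.6 in first 2i, 109 in long 2i, 40.9 in serum return and 41.7 in second 2i (2.56-fold from first to long 2i, adjusted p = 1.94e-12). Plk2, a polo-like kinase, averaged 14.3 CPM in serum, 38 in first 2i, 101 in long 2i, 11.9 in serum return and 25.8 in second 2i, rising 2.67-fold in first 2i and 2.65-fold more in long 2i (adjusted p = 4.58e-11 and 1.27e-11). Eda2r, of the TNF receptor family, averaged 31.1 CPM in serum, 49.95 in first 2i, 94.1 in long 2i, 46.1 in serum return and 31.8 in second 2i. It rose 1.61-fold in first 2i and then 1.88-fold in long 2i (adjusted p = 8.72e-07 and 9.12e-09).

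Others did not follow it. Gadd45a, a growth arrest gene of the DNA damage response, averaged 21.3 CPM in serum, 9.22 in first 2i, 14.1 in long 2i, 22.2 in serum return and 8.18 in second 2i, and fell by 1.21 on the log2 scale in first 2i (adjusted p = 3.86e-09), while Cdkn1a rose. Sesn1, the relative of Sesn2, averaged 40.7 CPM in serum, 43.1 in first 2i, 28.5 in long 2i, 42.7 in serum return and 49.6 in second 2i and fell by 0.60 from first to long 2i (adjusted p = 2.83e-06). Trp53cor1, the noncoding RNA next to Cdkn1a also called lincRNA-p21, was scarce: 0.443 CPM in serum, 3.2 in first 2i, 1.3 in long 2i, 0.562 in serum return and 2.09 in second 2i, higher in first 2i than in serum (adjusted p = 2.91e-06). Pank1, a coenzyme A synthesis gene, rose 6.97-fold in first 2i (adjusted p = 1.29e-15), from 6.05 to 42.1 CPM, the largest fold of the metabolism list among genes named by the rule on level.

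**Figure D5:**
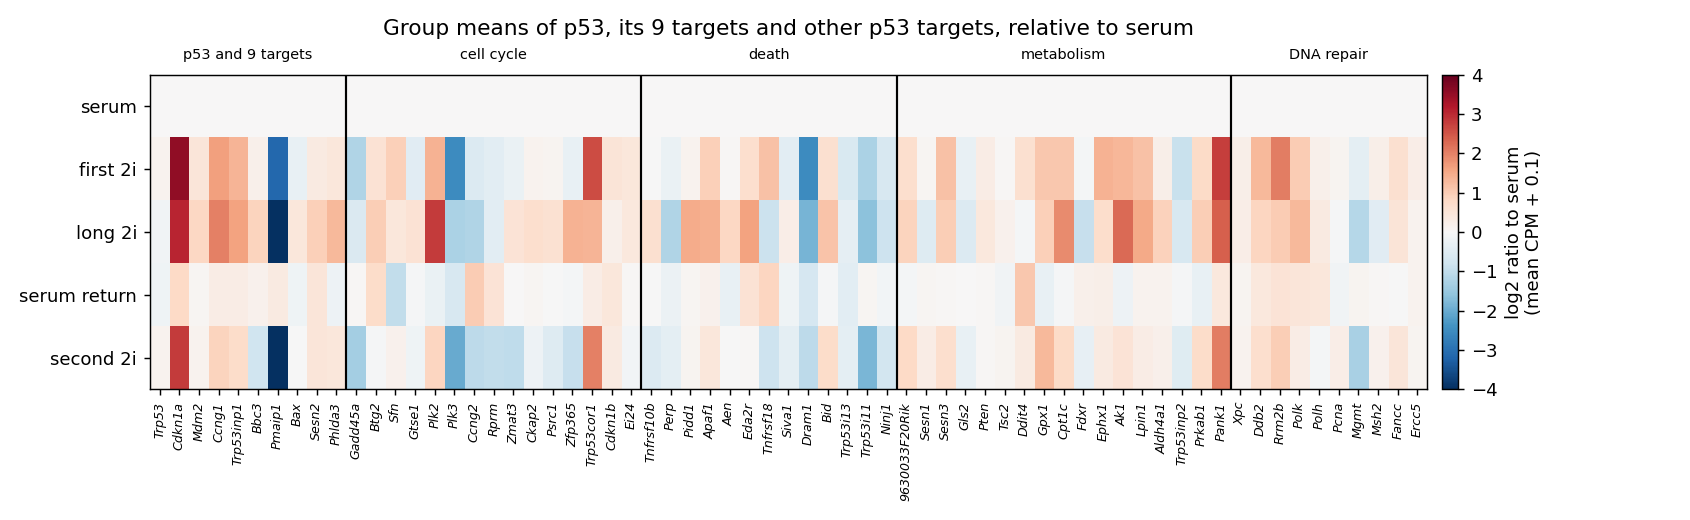
Log2 ratio of the group mean to the serum mean (colour, CPM plus 0.1, limited at 4 in either direction) for p53, its 9 targets and 55 other targets (columns) in the 5 groups (rows). Red is above and blue below serum. Pmaip1 lies beyond the colour limit in long 2i and second 2i, and the row of long 2i is red for 8 of the first 10 genes.

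Patterns most like those of 4 of the genes were looked for over the 10 libraries among 9902 tested genes of at least 5 CPM, by the root mean square difference of log2 CPM after each gene was centred on its own mean. The smallest differences from Trp53 were those of Fiz1 (0.0375), Sf3b2 (0.0459) and Ctdsp2 (0.0478), and from Cdkn1a those of Nsmaf (0.182), St14 (0.204) and Jakmip1 (0.231). For Pmaip1 they were Ndrg2 (0.376), Kif26a (0.394) and Sned1 (0.442). For Bbc3 they were Cuedc1 (0.172), Plcg2 (0.206) and Zmat3 (0.232), the last itself among the p53 targets.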

How the data were processed

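Total RNA of mouse ES cells was sequenced in 10 libraries. The files deposited by the authors hold raw gene counts as whole numbers. The submitters' processing notes name TopHat2 2.0.4, CASAVA 1.8.2, DESeq2, HTSeq 0.5.4p5 and genome build mm9. For the counting, the strand setting, annotation and read layout used were not given in the sources used here. Beside 24015 genes the tables list 5 summary categories, left out here. Gene counts were 51.2 to 54.8% of all records, and reads aligned to more than 1 place, 33.4 to 36.5%, were counted for no gene.

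Groups came from the labels. Replicates were numbered in accession order, which makes replicate 1 the title series LEM and replicate 2 the series MLE, of unstated meaning. Within each group the 2 libraries differed by more than counting noise. The tests used edgeR 4.0.16 and limma 3.58.1 in R 4.3.3: filterByExpr by group (minimum count 10, minimum total 15) left 14220 genes, and a robust quasi-likelihood model with TMM factors with only the group in it was fitted to all 10 libraries (5 residual degrees of freedom). There were 10 comparisons of 2 groups, an interaction and an overall test, two-sided, with Benjamini-Hochberg adjustment over all tested genes and a threshold of 0.05. "Rose", "fell", "higher" and "lower" of a tested gene refer to this threshold. The fit was tested on simulated data with 50 genes changed at each fold in 1 group. It recovered 50% of the 1.25-fold, 82% of the 1.5-fold and 86% of the 2-fold changes, so small differences can be missed. Far fewer genes were changed there than were called in the real comparisons, so it did not test the scaling under such conditions.

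The 10 genes, 12 pathway lists and 7 marker lists were chosen with earlier results of these data known. From each pathway list the text names genes from among the 3 called higher and 3 called lower with the largest fold at 5 CPM or more, per comparison, and always Mdm4, Cdkn2a, Ppm1d, Bcl2, Bcl2l1, Mcl1, Gadd45a, Zmat3, Sesn1 and Trp53cor1. Single marker genes and Rn45s were named after their values were seen. CPM per kb uses exon lengths of GENCODE vM21, and promoters are from RefSeq on GRCm38.p6, builds other than that of the counts. Alternatives were DESeq2's size factors, no filter on low counts, DESeq2 1.42.0, a fit of just the groups compared, a block for the title series, and each library left out once.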

Additional observations from a re-analysis of the deposited data

Results flagged for a closer look

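The response to 2i differed between the first and the second exposure for 8 of the 10 genes by edgeR's test of the difference itself, given here on the log2 scale as second minus first. It was -1.54 (adjusted p = 1.44e-09) for Cdkn1a, -1.05 (adjusted p = 5.74e-09) for Ccng1, -0.94 (adjusted p = 9.39e-05) for Trp53inp1 and -0.43 (adjusted p = 0.000314) for Mdm2. The first 3 of these rose less the second time, and Mdm2 rose the first time and did not pass the second. It was -1.15 (adjusted p = 0.000377) for Bbc3 and -1.46 (adjusted p = 8.1e-08) for Pmaip1, which ended lower the second time. Sesn2 gave -0.35 (adjusted p = 0.0155), which did not hold with replicate 1 of serum left out (adjusted p = 0.0981), nor without replicate 1 of first 2i (0.0601), replicate 1 of second 2i (0.0595) or replicate 2 of serum return (0.0592). Bax gave 0.48 (adjusted p = 0.00285), the only positive value among the 8. Of all tested genes, 18.4% were positive and 21% negative in this test.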

How the results depend on the processing

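Of 110 pairs of a gene and a comparison, 92 were called and 82 of these were called under every alternative. Over 1650 alternative values 1592 kept their side of the threshold, 28 lost a call, 30 gained one and none changed sign while called. Some uncalled differences among the 1592 did change sign. Trp53 in serum return against long 2i, for example, ran from -0.07 to 0.05 on the log2 scale. The calls lost were of Trp53, Trp53inp1, Bax, Cdkn1a, Mdm2 and Sesn2, and the libraries behind them are named beside the results. Of 373 counts of calls 370 stayed within 1.5 times the main count. Over all genes, serum return against serum gave 4407 calls and 2428 to 4512 with 1 library left out (2428 without replicate 1 of serum return, 2839 without replicate 2 of serum), and second 2i against first 2i gave 5357 and 3566 to 5426 (3566 without replicate 2 of second 2i). The cause was not tested. The count of the 10 genes called moved between 4 and 8 in serum return against serum.

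The replicate numbers did not meet the rule for pairing: the labels do not say what they mark, and deviations of same-numbered libraries correlated at 0.0994 to 0.168 (median 0.127) over the 10 pairs of groups, 9 of them over 0.1. With the replicate number as a block, 6172 genes were called in serum return against serum and 8 of the 10. In the interaction 7080 of the 14220 tested genes were called with the block, against 5598 without it, and all 10 of the p53 genes. The block added calls of Bax and Phlda3 in serum return against serum (adjusted p = 8.31e-05 and 0.00301), Bax in second 2i against serum return (6.75e-05) and in serum return against first 2i (0.00349), Sesn2 in second 2i and serum return against first 2i (0.00983 and 0.00383), and Trp53 and Phlda3 in the interaction (0.000268 and 0.039). It changed no other call of the 10 genes. With no filter on low counts, calls were gained for Bax and Phlda3 in serum return against serum (adjusted p = 0.0141 and 0.0301), Bax in second 2i against serum return (0.00648), Sesn2 in serum return against first 2i (0.0376) and Trp53 in the interaction (0.0408).

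With 2 libraries a group, a library left out leaves a lone one, assumed to vary like the other groups. Reads of near-identical copies and overlapping genes limit Trp53, Cdkn1a and Bax.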

Other observations

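Other inhibitors of cyclin-dependent kinases moved beside Cdkn1a. Of 8 such genes, Cdkn1a included, 6 rose and 1 fell in first 2i against serum, and 5 rose and 1 fell in second 2i against serum return (median log2 fold change 1.79 and 1.42). Of all tested genes, 35.1% rose and 34.9% fell in the first of these comparisons, and 32.3% and 33.3% in the second. Cdkn1c, which encodes p57, was the gene that fell both times: it averaged 7.3 CPM in serum, 0.717 in first 2i, 1.26 in long 2i, 7.66 in serum return and 0.697 in second 2i. Cdkn2b, the neighbour of Cdkn2a, averaged 0.174 CPM in serum, 3.17 in first 2i, 5.78 in long 2i, 0.394 in serum return and 2.22 in second 2i, and was higher in long 2i than in each of the other groups.

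The ATF4 and CHOP targets, counted with Sesn2 and Atf4 itself, were split by group in another way. In first 2i 10 of 14 rose and 2 fell, and in serum return against long 2i 9 rose and 2 fell, Sesn2 among the latter. The shares over all tested genes were 35.1% and 34.9%, and 35.4% and 36%. Ddit4, an mTORC1 inhibitor that p53 and ATF4 both act on, averaged 45.4 CPM in serum, 71.1 in first 2i, 42.8 in long 2i, 96.2 in serum return and 58.3 in second 2i, so that its highest group was serum return and that of Sesn2 long 2i. Atf4 itself ranged from 638 CPM in first 2i to 779 CPM in serum.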
